A study of Homo sapiens with 4 samples.

Results

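The 10 genes described here encode cargo of the dense-core vesicle and factors that process that cargo: the chromogranins CHGA and CHGB, the secretogranins SCG2 and SCG3, the granin-family precursor VGF, the chaperone SCG5 (7B2), the convertase inhibitor PCSK1N (proSAAS), and the neuropeptide precursors NPY, GAL (galanin) and CARTPT (CART). They were found by name in each of the 4 tables, as 10 of 58243 listed genes. Of these, 9 had enough counts to be tested, among 14759 genes tested in all, and CARTPT had none.

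SH-SY5Y, an established human neuroblastoma line, was cultured in medium with 10% serum and profiled by RNA sequencing. The control group comprised 2 libraries (a and b) of cells given no agent. The other group comprised 2 libraries (a and b) from cells exposed for 8 h to sodium nitroprusside (SNP), a nitric oxide donor. The labels speak of several doses, do not say which was sequenced, and call the RNA of treated cells oxidized. The treatment text speaks of retinoic acid differentiated cells, while the growth text describes no differentiation step. The labels describe replicate wells within an experiment and do not say whether the 2 libraries of a group came from separate cultures, so p-values measure only the spread between these samples, which may be technical.

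Dense-core vesicles store peptides that neurons and chromaffin cells release on stimulation. Granins condense in the trans-Golgi network together with peptide precursors, and PCSK1 and PCSK2, the prohormone convertases, then cut the precursors inside the maturing vesicle, after which carboxypeptidase E (CPE) and the amidating enzyme PAM trim and modify the fragments. SCG5 is the chaperone that PCSK2 needs to mature, and proSAAS inhibits PCSK1. Neuroblastoma arises from the sympathoadrenal lineage, in which CHGA is a classical marker of secretory cells and NPY is stored together with noradrenaline.

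The summed counts were between 5613144 and 8056550 per library, so that 3 counts corresponded to between 0.372 and 0.534 counts per 1000000 counted (CPM); this floor covers counting error only. The lowest correlation of log2 CPM across genes was 0.958 between groups, and the replicates of a group correlated at 0.982 (control) and 0.984 (SNP). Of 14 noradrenergic neuroblastoma markers, 13 were tested, 8 fell and 1 rose (HAND2), against 26.2% of all genes called in either direction. With RPKM totals 4 of these markers were called. With the composition offsets described below 6 were called, against 19.0% of all genes. TH, the first enzyme of catecholamine synthesis, was listed at 0 in all 4 libraries, and whether the authors' counting left out reads at this locus could not be settled, so the 0 is not read as absence. DBH, the enzyme that makes noradrenaline, named here after its value was seen, fell by 1.38 on the log2 scale. The summed level of these markers was between 4885 and 4903 CPM in control and between 3781 and 3906 CPM in SNP libraries. Of 15 mesenchymal or Schwann-like markers, 8 were tested, 3 fell and 1 rose (COL3A1), and their sum was between 352.5 and 368.0 CPM in control and between 273.7 and 279.1 CPM in SNP libraries, with SOX10 at 0. The 7 immune and endothelial markers summed to between 2.14 and 2.98 CPM over the 4 libraries. Of 8 retinoic acid response genes, 6 were tested and 1 fell (RARA). CYP26A1, the inducible retinoic acid hydroxylase, was at 0 throughout. Others of the list, named after their values were seen, differed in level. Mean CPM in control libraries was 228.5 for STRA6, 18.7 for CRABP2, 3.13 for RARB and 2.54 for DHRS3. Whether the cells were differentiated cannot be told from these levels. The part of the marker shifts in the results below was not tested, and in bulk RNA fewer cells of a type and less RNA per cell cannot be told apart.

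The promoters of 3 members are shown because the same element stands in front of genes that differ here: CHGA, which rose, VGF, which was the most abundant member and did not pass the test, and CARTPT, which was not detected. RefSeq sequences (GRCh38.p14) were matched by symbol for 7 members; CHGB, SCG2 and GAL were not matched. The 250 bases before each RefSeq start were searched on both strands for TGACGTCA, the palindromic cAMP response element, and for TATAA, the core of a TATA box. The 150 bases before the start are printed 5′ to 3′ on the gene's strand, with both motifs in capitals; the windows are chr14:92923000-92923149 (plus strand), chr7:101165570-101165719 (minus strand) and chr5:71719125-71719274 (plus strand).
CHGA: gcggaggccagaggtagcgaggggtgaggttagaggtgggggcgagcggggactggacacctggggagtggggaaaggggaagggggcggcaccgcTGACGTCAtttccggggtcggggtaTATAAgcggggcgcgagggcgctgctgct
VGF: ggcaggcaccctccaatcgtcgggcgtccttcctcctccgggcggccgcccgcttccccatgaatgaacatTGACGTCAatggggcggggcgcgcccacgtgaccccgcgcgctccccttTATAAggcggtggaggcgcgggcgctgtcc
CARTPT: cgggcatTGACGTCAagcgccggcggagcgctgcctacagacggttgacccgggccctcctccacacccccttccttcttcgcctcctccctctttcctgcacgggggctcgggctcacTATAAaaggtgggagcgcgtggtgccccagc

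Counted from the RefSeq start as position 0, the element began at position -54 in CHGA, -79 in VGF and -143 in CARTPT, and each of these windows also held TATAA closer to the start. The starts annotated in GENCODE 29 lie inside the printed windows, at 92923080 for CHGA, 101165593 for VGF and 71719163 for CARTPT. Part of each window is thus within the GENCODE gene, and in CHGA that part holds the element. The windows of SCG3, SCG5, NPY and PCSK1N held neither motif. Of all 35116 promoter windows of this length, 1.65% held TGACGTCA and 18.9% held TATAA. Among the genes tested, 303 with a matched window held TGACGTCA; their median log2 fold change was 0.025, against -0.0033 for all 10416 tested genes with a matched window. A match describes letters in a window and not a bound site.

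Per unit of transcript length, VGF stood far above the other members. VGF encodes a precursor of several bioactive peptides and is inducible by neurotrophins. Its level, in TPM (transcripts per 1000000) from the authors' deposited tables, was 628.2 and 760.9 in control a and b, and 684.0 and 871.3 in SNP a and b, at percentile 99.7 of the mean TPM of all genes tested. VGF alone held between 46.5% and 57.3% of the summed TPM of the 10 members in the 4 libraries. In control libraries the order by mean TPM was VGF, SCG3 (128.0), SCG2 (127.4), NPY (94.0), CHGA (80.5), GAL (61.4), CHGB (30.2), SCG5 (24.2), PCSK1N (16.3) and CARTPT (0). The ranges of the neighbours SCG3 and SCG2 overlapped, and those of the other neighbours did not. In SNP libraries the order was VGF (777.7), SCG2 (218.1), CHGA (163.8), SCG3 (155.6), CHGB (64.0), NPY (51.2), GAL (38.5), SCG5 (37.5), PCSK1N (12.1) and CARTPT (0). There the ranges overlapped for CHGA with SCG3, CHGB with NPY and GAL with SCG5. NPY stood above CHGA in both control libraries and below CHGA and CHGB by mean in SNP libraries. The ratio of CHGA to NPY in TPM was 0.923 and 0.799 in control a and b, and 3.72 and 2.76 in SNP a and b. No offsets for base composition, in which CHGA and NPY differ as described below, were applied to these levels. CHGA, CHGB and SCG2 together made up 20.8% and 17.3% of the members' TPM in control a and b, and 33.0% and 26.0% in SNP a and b.

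Of the 9 members tested, 5 passed an adjusted p of 0.05 between the groups, against 26.2% of all genes tested. The rise was in CHGA, CHGB and SCG2, the fall in NPY and GAL; 13.6% of all genes tested rose and 12.6% fell. The median log2 fold change of the 9 members was 0.17, against -0.0042 over all genes tested. In 7 of the 9 the SNP values lay wholly on one side of the control values, as they did for 64.0% of all genes tested; in 4 of these the SNP values were the higher ones, against 31.7%.

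The same fit was repeated under other settings, and the share of all genes called in each is the background for the members' calls quoted below. It was 15.5% without a filter on low counts, 33.0% with a mean of at least 50 counts, 26.3% with DESeq2 size factors in edgeR, 25.1% with total counts, 26.0% with limma-voom and 22.4% with RPKM totals. DESeq2's Wald test called 18.9% of the 12756 genes to which it gave an adjusted p, fewer than the 14759 genes tested in the main fit. Leaving out control a, control b, SNP a or SNP b gave 16.0%, 15.8%, 20.4% and 27.4%. Treating the library letter as a block gave 30.4%, and 18.4% together with the composition offsets described below; a threshold of 0.01 gave 15.1%.

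**Figure D1:**
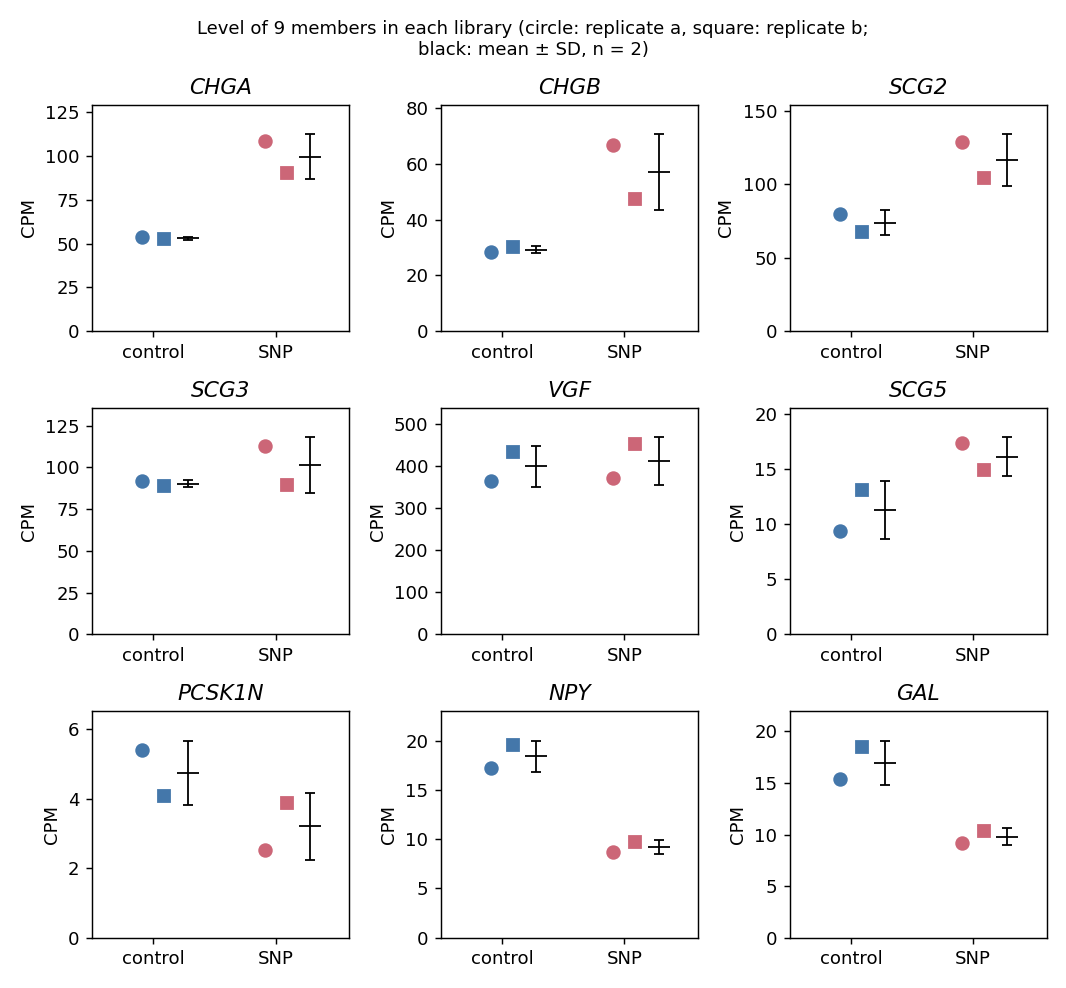
Level of 9 members in CPM (linear axes from 0) in control (blue) and SNP (red) libraries; circles are replicate a, squares replicate b, and black marks show mean ± SD (n = 2). CHGA, CHGB and SCG2 are higher and NPY and GAL lower in both SNP libraries, while VGF and SCG3 overlap between groups.

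Positions here and below are GRCh38, GENCODE 29. CHGA (ENSG00000100604, chromosome 14, 92923080 to 92935293, plus strand) encodes chromogranin A, a dense-core vesicle cargo that is cut into peptides such as vasostatin and catestatin. It was counted 348 and 296 times in control a and b, and 864 and 698 times in SNP a and b. These counts correspond to 53.7, 52.6, 108.8 and 90.5 CPM in the same order. Both SNP libraries stood above both control libraries, and the control libraries nearly coincided. The level rose from 53.1 ± 0.789 to 99.6 ± 12.9 CPM (SD, n = 2 each), 1.88-fold (95% interval 1.57 to 2.24), with a log2 fold change of 0.91 (SE 0.123) and an adjusted p of 2.0e-05 (quasi-likelihood test of edgeR, Benjamini-Hochberg over every gene tested).

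CHGB (ENSG00000089199; chromosome 20, 5911430 to 5925361, plus strand), chromogranin B, is the other abundant acidic protein of chromaffin granules. Its counts were 183 and 169 in control a and b, and 529 and 366 in SNP a and b. The levels were 28.2, 30.0, 66.6 and 47.5 CPM, so the groups did not overlap but the SNP libraries lay well apart from each other. CHGB rose 1.96-fold (95% interval 1.56 to 2.46), from 29.1 ± 1.26 to 57.0 ± 13.5 CPM (SD, n = 2 each), with a log2 fold change of 0.97 (SE 0.159) and an adjusted p of 1.3e-04 (edgeR, Benjamini-Hochberg). The ratio of CHGA to CHGB in TPM stayed between 2.39 and 2.79 in the 4 libraries, and its control values, 2.78 and 2.56, lay within the range of the SNP values.

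SCG2 (ENSG00000171951; chromosome 2, 223596940 to 223602503, minus strand) encodes secretogranin II, the precursor of secretoneurin. It was counted 517 and 381 times in control, and 1023 and 801 times in SNP libraries. At 79.7 and 67.6 CPM in control a and b and 128.8 and 103.9 CPM in SNP a and b, the groups did not overlap. The rise was 1.58-fold (95% interval 1.32 to 1.89), a log2 fold change of 0.66 (SE 0.125) with an adjusted p of 5.5e-04 (edgeR, Benjamini-Hochberg). CHGA, CHGB and SCG2 each passed in all 15 alternative fits at the 0.05 threshold. Over these fits the log2 fold change ranged from 0.76 to 1.07 for CHGA, from 0.69 to 1.20 for CHGB and from 0.49 to 0.81 for SCG2. Without SNP a, the library with the higher value of each, the log2 fold changes of CHGA, CHGB and SCG2 were 0.77, 0.71 and 0.49.

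SCG3 and VGF did not pass. SCG3 (ENSG00000104112; chromosome 15, 51681353 to 51721031, plus strand), secretogranin III, binds chromogranin A and tethers it to the granule membrane. Its levels were 91.6 and 88.8 CPM in control a and b, and 113.0 and 89.3 CPM in SNP a and b, so SNP b lay between the control values. The log2 fold change was 0.17, with a 95% interval from -0.085 to 0.42 and an adjusted p of 0.336 (edgeR, Benjamini-Hochberg). Without SNP b SCG3 passed, at a log2 fold change of 0.33 and an adjusted p of 0.0316 (edgeR, Benjamini-Hochberg), and without SNP a the log2 fold change was -0.015.

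VGF (ENSG00000128564; chromosome 7, 101162509 to 101165593, minus strand) had the largest counts of the members, 2364 and 2440 in control and 2942 and 3475 in SNP libraries. Its levels were 364.6, 433.2, 370.3 and 450.6 CPM in the same order of libraries, and each group spanned nearly the same range. The estimated log2 fold change, 0.042 (SE 0.106), had an adjusted p of 0.814 (edgeR, Benjamini-Hochberg). In fold terms the 95% interval ran from 0.884 to 1.20, which lies below that of CHGA (1.57 to 2.24); the difference between these genes was not itself tested.

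**Figure D2:**
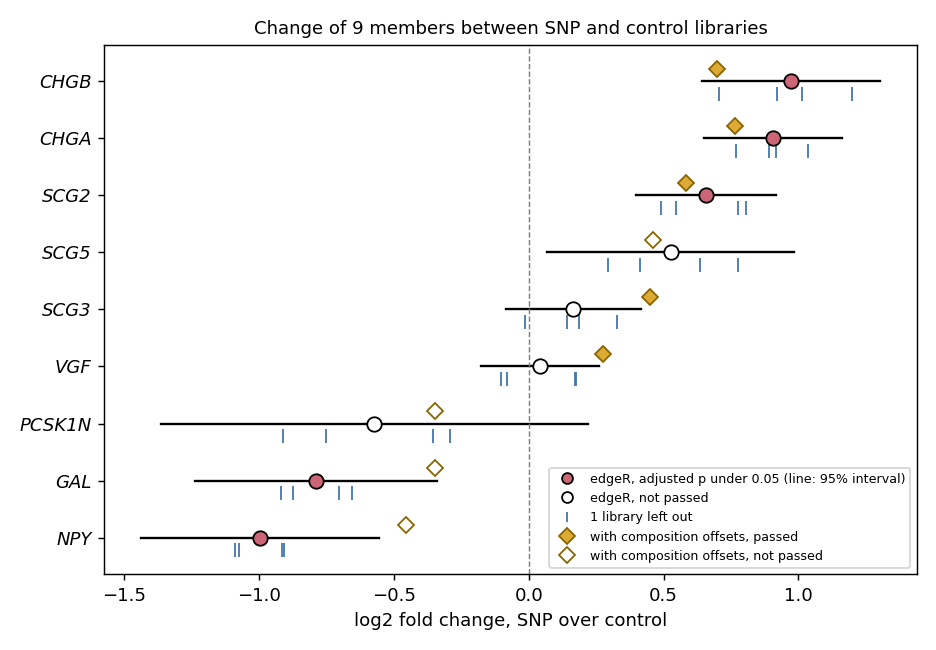
Log2 fold change of SNP over control for 9 members: circles with black lines give edgeR's estimate with its 95% interval, blue ticks the fits that each leave out 1 library, and diamonds the fit with base composition offsets (length, GC, guanine relative to cytosine); filled symbols passed an adjusted p of 0.05. CHGB, CHGA and SCG2 are filled in both fits, whereas NPY and GAL are filled in the first only and SCG3 and VGF in the second only.

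The convertase partners SCG5 and PCSK1N had few counts. SCG5 (ENSG00000166922; chromosome 15, 32641676 to 32697098, plus strand), the PCSK2 chaperone, was counted 61 and 74 times in control and 138 and 115 times in SNP libraries. At 9.41 and 13.1 CPM against 17.4 and 14.9 CPM the groups did not overlap, yet the log2 fold change of 0.53 (SE 0.221) had an adjusted p of 0.0840 (edgeR, Benjamini-Hochberg) and did not pass. Without SNP b it reached 0.0495, and over the alternatives its adjusted p (edgeR, DESeq2 and limma-voom, Benjamini-Hochberg) ranged from 0.0424 to 0.539. SCG5 shares 11 of its 2196 exonic bases with the opposite-strand AC123768.1, which had 0 counts; no other member shares an exonic base with another gene.

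PCSK1N (ENSG00000102109; chromosome X, 48831094 to 48835633, minus strand), the precursor of the PCSK1 inhibitor, was counted 35 and 23 times in control and 20 and 30 times in SNP libraries. Its levels were 5.40 and 4.08 CPM against 2.52 and 3.89 CPM, so SNP b stood just under control b. The log2 fold change was -0.57 with a 95% interval from -1.36 to 0.22, and the adjusted p was 0.289 (edgeR, Benjamini-Hochberg). A difference was not detectable at this depth, and PCSK1N passed in 0 of the 14 alternatives in which it was tested.

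The neuropeptide precursors NPY and GAL fell, on counts within the range of those of SCG5. NPY (ENSG00000122585; chromosome 7, 24284163 to 24291865, plus strand) encodes neuropeptide Y, the co-transmitter of sympathetic neurons. It was counted 112 and 110 times in control, and 69 and 75 times in SNP libraries, which had more counts in all. The levels were 17.3 and 19.5 CPM in control a and b and 8.69 and 9.72 CPM in SNP a and b, so each SNP library lay near the midpoint between 0 and control. NPY was 1.99-fold lower in SNP libraries, with a log2 fold change of -0.996 (SE 0.212) and an adjusted p of 0.0015 (edgeR, Benjamini-Hochberg). With the composition offsets described below its log2 fold change was -0.46 and it did not pass (adjusted p 0.106).

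GAL (ENSG00000069482; chromosome 11, 68683779 to 68691175, plus strand) encodes galanin, an inhibitory peptide that sympathetic and sensory neurons induce after injury. Its counts were 100 and 104 in control and 73 and 80 in SNP libraries. At 15.4 and 18.5 CPM against 9.19 and 10.4 CPM, the groups did not overlap. GAL was 1.73-fold lower, with a log2 fold change of -0.79 (SE 0.216) and an adjusted p of 0.0097 (edgeR, Benjamini-Hochberg). The call of GAL was lost without control b, where the adjusted p was 0.103, and with DESeq2's Wald test, where it was 0.0582 (Benjamini-Hochberg in both). It was also lost with offsets on length and GC (log2 fold change -0.53, adjusted p 0.0555), with the composition offsets (-0.35, 0.225) and with these and the replicate block (-0.35, 0.252). The ratio of NPY to GAL in TPM was 1.58 and 1.49 in control a and b and 1.33 and 1.32 in SNP a and b. CARTPT (ENSG00000164326; chromosome 5, 71719163 to 71721048, plus strand), the precursor of a hypothalamic peptide, had 0 counts in all 4 libraries. By depth alone this allows up to 0.534 CPM in control b, the shallowest library. The doubt about counting stated for TH was not settled for CARTPT either, so its 0 is not read as absence.

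The members that rose and those that fell differed in the base composition of their transcripts, a property that went with the log2 fold change across all genes. Over 14724 genes tested, which share the same 4 libraries, the Spearman correlation of the log2 fold change with guanine minus cytosine content was 0.480. The correlation of the log2 ratio of SNP b over SNP a with the same measure was -0.314, and that of control b over control a was -0.033. Guanine exceeded cytosine by 4.22 percentage points in CHGB, 3.81 in CHGA, 3.09 in SCG5 and 2.51 in SCG2. The difference was -1.24 in SCG3, -2.11 in VGF, -0.971 in PCSK1N, and -3.56 and -3.55 in NPY and GAL. NPY and GAL thus lay at percentiles 7.05 and 7.07 of the genes tested and CHGB and CHGA at percentiles 90.0 and 86.9. With genes cut into 10 equal groups by this measure, the median log2 fold change was -0.43 in the lowest group and 0.39 in the highest.

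**Figure D3:**
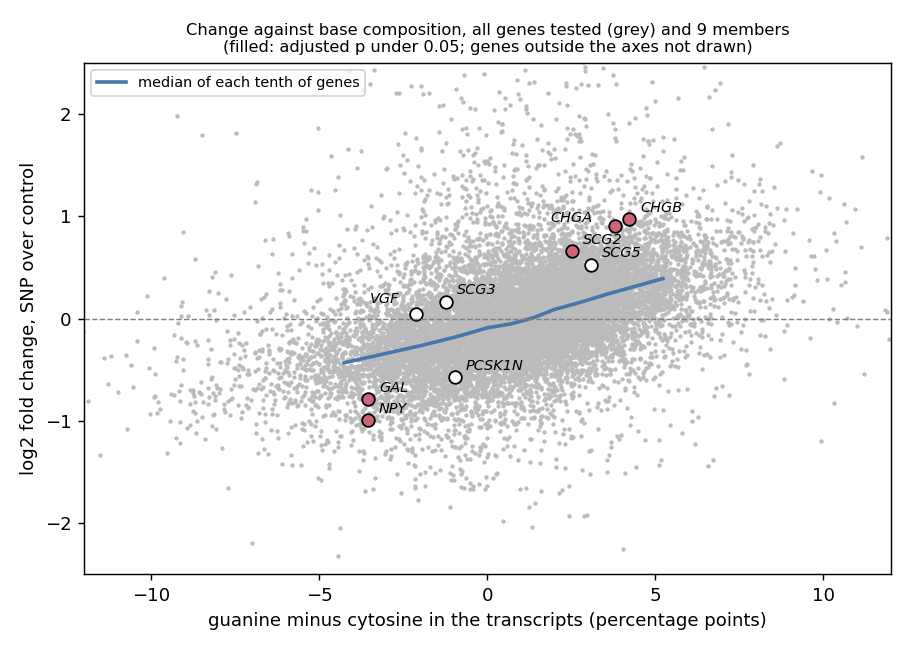
Log2 fold change of SNP over control against guanine minus cytosine content of the annotated transcripts in percentage points, for all genes tested (grey), with the median of each of 10 equal groups of genes (blue line) and 9 members (filled: adjusted p under 0.05). The 3 members that rose lie at the right above the line, NPY and GAL at the left below it, and VGF and SCG3 at the left above it.

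With offsets that remove smooth trends on transcript length, on GC and on guanine relative to cytosine, CHGA, CHGB and SCG2 kept log2 fold changes of 0.77, 0.70 and 0.58, with adjusted p-values of 0.0014, 0.0057 and 0.0022 (edgeR, Benjamini-Hochberg). In that fit 19.0% of all genes tested were called. NPY and GAL no longer passed, at -0.46 (adjusted p 0.106) and -0.35 (adjusted p 0.225). SCG3 and VGF passed as higher in SNP, at 0.45 and 0.28, with adjusted p-values of 0.0078 and 0.0111. The number of members called was 5 in both fits, but only CHGA, CHGB and SCG2 were called in both. With offsets on length and GC alone, where 28.4% of all genes were called, NPY passed at -0.76 (adjusted p of 0.0093, edgeR, Benjamini-Hochberg), VGF at 0.25 (0.0190) and SCG5 at 0.58 (0.0471), and GAL did not, at -0.53 (0.0555).

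Around the cargo, the genes of 5 other lists moved in both directions and mostly did not pass. Of 13 peptide processing enzymes, 9 were tested, 1 rose and 1 fell, with a median log2 fold change of 0.046. The share called, 22.2%, was near the 26.2% of all genes tested. CPE, which trims basic residues left by the convertases, rose from 24.3 ± 0.547 to 37.7 ± 6.08 CPM (SD, n = 2 each), a log2 fold change of 0.64 with an adjusted p of 0.0056 (edgeR, Benjamini-Hochberg); without SNP a it was 0.46, with an adjusted p of 0.0561. PREP, a cytosolic enzyme that cuts short peptides after proline, fell by 0.46 on the log2 scale, with an adjusted p of 0.0067 (edgeR, Benjamini-Hochberg), and missed the threshold without control b (0.0723) and with RPKM totals (0.0566). PAM had a log2 fold change of 0.046 and did not pass. The prohormone convertases PCSK1 and PCSK2 were nearly undetected: PCSK1 had 0, 1, 0 and 2 counts and PCSK2 had 8, 5, 3 and 2 counts, controls first. Other convertases of the list were counted more, with PCSK7 at 1133, 891, 1415 and 1566 counts. PCSK7, FURIN, PCSK6 and PCSK4, named after their values were seen, were tested and did not pass. PCSK5 had too few counts to be tested.

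Of 30 genes of granule assembly, transport and release, 25 were tested, 5 fell and 1 rose, with a median of -0.084; outside the naming rule, and named after their values were seen, RAB3D and VAMP2 fell and CCDC186 rose. The share called, 24.0%, was near the 26.2% of all genes tested, and the number called was 2 without control b and 2 with DESeq2's Wald test. The largest fall was in SLC18A1, the vesicular monoamine transporter of chromaffin cells, from 28.9 ± 2.96 to 13.7 ± 1.43 CPM (SD, n = 2 each), a log2 fold change of -1.08 with an adjusted p of 1.7e-04 (edgeR, Benjamini-Hochberg). HID1, a Golgi protein needed to form peptide vesicles, fell by 0.76 on the log2 scale, with an adjusted p of 0.0044 (edgeR, Benjamini-Hochberg). RAB3A, a GTPase of secretory vesicles, had a log2 fold change of -0.94 and an adjusted p of 0.0278, but only 28 to 57 counts per library; it did not pass with DESeq2 (0.124), with the composition offsets (0.525), without control b (0.182) or without SNP b (0.162), all Benjamini-Hochberg adjusted. PTPRN and PTPRN2, the receptor-like phosphatases of the granule membrane, had log2 fold changes of -0.27 and -0.084 and did not pass. Without SNP b PTPRN passed, at -0.47 with an adjusted p of 0.0082 (edgeR, Benjamini-Hochberg).

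Of 51 other precursors of neuropeptides and peptide hormones, only 11 were tested and 21 were at 0 in all 4 libraries, among them SST, PENK, GRP and ADCYAP1. VIP, the precursor of vasoactive intestinal peptide, was counted 140, 148, 201 and 134 times, controls first, and did not pass (log2 fold change -0.16, adjusted p 0.583, edgeR, Benjamini-Hochberg); it was named after its values were seen. The 11 had a median log2 fold change of -0.074, and 9.09% of them were called, against 26.2% of all genes tested. The 1 that rose was NUCB2, the nesfatin precursor, by 0.40, with an adjusted p of 0.0325 (edgeR, Benjamini-Hochberg). NUCB2 did not pass with DESeq2 (0.112), without the filter on low counts (0.0533), with offsets on length and GC (0.0739), with the composition offsets alone (0.321) or with the replicate block (0.354), or without control a (0.113), control b (0.254) or SNP a (0.0968). GNAS, whose locus also encodes the granin-like NESP55, did not pass (log2 fold change -0.074, adjusted p 0.582, edgeR, Benjamini-Hochberg), at 532.2 ± 36.5 and 505.3 ± 0.639 CPM (SD, n = 2 each); its counts do not separate the transcripts of the locus.

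Of 15 receptors for the members' peptides and sorting receptors, 4 were tested, with a median of -0.54. Of all genes tested 26.2% were called and 12.6% fell, but 4 genes are too few to compare with these shares. Of the 4, 2 fell. Both were sorting receptors of the VPS10 family: SORT1 fell from 147.3 ± 0.0557 to 97.8 ± 2.77 CPM and SORL1 from 69.0 ± 0.0898 to 48.8 ± 2.5 CPM (SD, n = 2 each). Their adjusted p-values were 2.7e-04 and 0.0045 (edgeR, Benjamini-Hochberg). NPY2R, the only NPY receptor with enough counts, was counted 38, 53, 42 and 30 times and did not pass (log2 fold change -0.72, adjusted p 0.112, edgeR, Benjamini-Hochberg), except without control a, at -1.04 (0.0421). NPY1R and NPY5R were at 0, and GALR1, GALR2 and GALR3 had at most 1 count in any library.

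Of 18 regulators known to act on neuroendocrine genes, 17 were tested, 7 fell and 1 rose (HAND2, named after its value was seen), with a median of -0.19. The share called was 47.1%, against 26.2% of all genes tested. The 8 called became 3 with the composition offsets, 2 with these and the replicate block, 4 with RPKM totals and 5 without control a. INSM1 was listed at 0, with the same doubt about counting as for TH. PHOX2A, a homeodomain factor of noradrenergic neurons that is also among the noradrenergic markers above, fell by 0.94 on the log2 scale, and CRTC1 and CRTC2, co-activators of the cAMP response element binding protein, fell by 0.79 and 0.78. Their adjusted p-values were 9.7e-06, 5.8e-04 and 4.4e-04 (edgeR, Benjamini-Hochberg), and with the composition offsets the log2 fold changes were -0.40, -0.36 and -0.27, of which that of CRTC2 did not pass (0.116); with the replicate block added, neither CRTC2 (0.128) nor CRTC1 (0.0509) passed. REST, the repressor of neuronal and neuroendocrine genes, had 128.2 and 97.5 CPM in control a and b and 130.8 and 129.0 CPM in SNP a and b, and did not pass at a log2 fold change of 0.20 (adjusted p 0.232, edgeR, Benjamini-Hochberg).

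**Figure D4:**
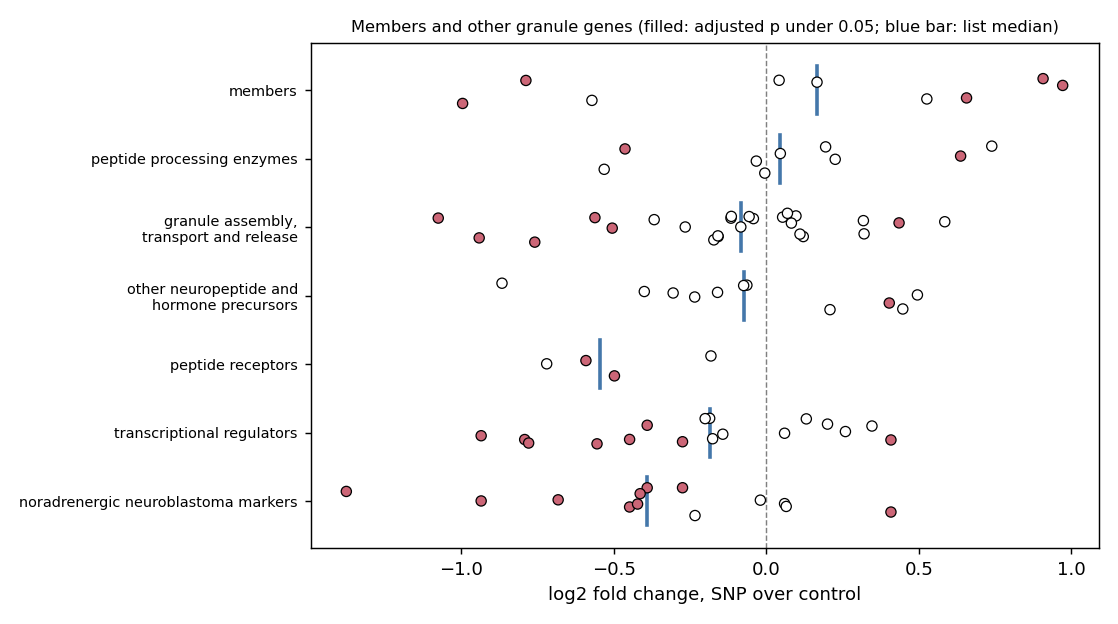
Log2 fold change of SNP over control for each tested gene of the members, 5 other lists (processing enzymes, granule genes, other precursors, receptors, transcriptional regulators) and the noradrenergic markers; filled points passed an adjusted p of 0.05 and blue bars are list medians, with vertical scatter only to separate points. The members spread from NPY at -0.996 to CHGB at 0.97, while 8 of the 13 tested noradrenergic markers are filled on the negative side.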

How the data were processed

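Each of the 4 libraries of SH-SY5Y cells had 1 table of genes. Per the labels, RNA was read at 75 bp, and the submitters' processing notes name GRCh38; the aligner, counter, strand setting and annotation are not given in the sources used here. The authors deposited whole-number read counts per gene without normalization, TPM values scaled to 1000000 per library, and RPKM values scaled to a read total larger than the summed counts, which were 11.5% to 13.3% of it. Tests used the counts, levels between genes the TPM, and 1 alternative the totals implied by RPKM.

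Positions, exon overlaps, lengths and base composition came from GENCODE 29 (GRCh38), which held 57980 of the 58243 identifiers; in each library between 90.4% and 90.5% of counted genes had an implied length within 0.5% of the GENCODE exon length. Promoters came from RefSeq (GRCh38.p14). The count model was that of edgeR 4.0.16 (R 4.3.3): filterByExpr (minimum count 10, minimum total 15), TMM scaling (factors 0.989 to 1.01), the quasi-likelihood test of SNP against control over all 4 libraries without covariate, Benjamini-Hochberg adjustment over all genes tested, threshold 0.05. Each standard error was derived from the estimate and its F statistic. CPM used TMM-scaled totals.

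Alternatives were other filters (none beyond a count above 0; a mean of 50), DESeq2 1.42.0 size factors, its Wald test, total counts, limma-voom (limma 3.58.1), RPKM totals, the replicate letter as a block, lowess offsets (span 0.5, 3 iterations) on length, GC and guanine relative to cytosine, a threshold of 0.01, and each library left out. The scripts were tested on simulated counts. The members, the other lists and the alternatives were chosen with earlier results of these data known. From each list the text names up to 3 genes past the threshold, with groups apart and a mean of at least 5 CPM, by size of change, and fixed partners of the members; list genes at 0 or under the filter, and those the text marks so, were named after their counts were seen.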

Additional observations from a re-analysis of the deposited data

How the results depend on the processing

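CHGA, CHGB and SCG2 kept their direction and their call in all 15 alternative fits at the 0.05 threshold, and their reported fit also passed 0.01. NPY lost its call with the 2 fits that include guanine-over-cytosine offsets, at a log2 fold change of -0.46 in both, and GAL in 5 fits; the cause was not tested. The number of members called lay between 4 and 7. The 3861 genes called over all genes became 2415 under the Wald test of DESeq2, 2224 under a threshold of 0.01, and 2447 to 4144 when 1 library was left out, where fewer samples entered. The 19 genes called in the 5 other lists became 12 with DESeq2's Wald test, 12 with the replicate block and composition offsets together, 12 at 0.01, and 11 to 21 when 1 library was left out.

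The labels do not say that the letters mark a shared experiment, so the letters were not taken to pair the samples. The a minus b differences in log2 CPM of the control and SNP groups correlated at 0.050 across genes. A low correlation over all genes cannot exclude a pairing. A replicate block on that letter gave 4487 genes called, with 5 members and 21 genes of the other lists; PTPRN then passed, at a log2 fold change of -0.27.

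Reversals occurred only for genes that did not pass in the fit reported. With 1 library left out SCG3 ranged from -0.015 to 0.33, VGF from -0.10 to 0.18, PAM from -0.099 to 0.20 and PTPRN2 from -0.27 to 0.081 on the log2 scale. With offsets on length and GC, GNAS was 0.038 and PTPRN2 0.00064; with guanine-over-cytosine added, GNAS was 0.086, PTPRN2 0.10 and PAM -0.021, and with the replicate block as well 0.085, 0.097 and -0.017. Low counts limit what can be said of PCSK1N, SCG5, NPY, GAL, NPY2R and RAB3A. CARTPT could not be tested, and PCSK1N was not kept with a mean of 50 counts.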
